A study of Homo sapiens with 24 samples.

Results

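Treatment labelled DEX was compared with vehicle (VEH) in BT549 cells, a human triple negative breast cancer line, by RNA sequencing of 3 DEX and 3 VEH libraries, which are 6 of the 24 libraries of the study. The members were chosen by their treatment labels alone: the 3 libraries labelled DEX and the 3 labelled VEH in the experiment with the MYC inhibitor KJ-PYR-9. The same experiment held 3 libraries of cells given KJ-PYR-9 at 40 µM for 3 h and 3 given KJ-PYR-9 and DEX (KJ-PYR-9+DEX), and these 12 libraries were fitted together. All carried the genotype label WT and no engineered allele, and all came from 1 cell line grown in medium with serum. The labels number the libraries of each group as BioRep 1 to 3, and they give neither the dose nor the duration of DEX nor the solvent of VEH. They do not spell out DEX either. Lists of glucocorticoid-regulated genes were drawn up because DEX is a common short form of dexamethasone, a synthetic glucocorticoid.

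Glucocorticoids bind the glucocorticoid receptor, a nuclear receptor encoded by NR3C1 that is held in the cytoplasm by HSP90 and its cochaperones. The bound receptor enters the nucleus, where it binds DNA at inverted repeats, the glucocorticoid response elements, and induces genes such as TSC22D3, FKBP5, PER1 and ZBTB16. It also represses many cytokine genes, mostly through AP-1 and NF-kB. Immediate early genes, among them FOS, EGR1 and the NR4A nuclear receptors, are induced within minutes by growth factors, serum or stress and need no new protein for it. In triple negative breast cancer, which lacks estrogen receptor, progesterone receptor and HER2 amplification, the glucocorticoid receptor is the steroid receptor most often present.

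The libraries differed in depth. The reads recovered from the normalized counts came to 30260308, 30758107 and 7845991 in VEH replicates 1, 2 and 3 and to 5581666, 14527582 and 12117454 in DEX. In DEX replicate 1, 26.0% of the reads lay in features without a gene symbol, and 3 such features alone held 23.4%. In the other 5 libraries these features took 1.62% to 2.07%. DEX replicate 1 had the fewest reads, 1 of them was worth 3.05 normalized counts, and 93 of the 13616 genes tested were listed at 0 in it, against 1 to 5 in the other 5 libraries. Calls are therefore given with and without DEX replicate 1, and each gene said below to have risen or fallen was called in both fits unless stated otherwise. In bulk RNA, fewer cells expressing a gene and less RNA per cell cannot be told apart. Among markers of the line, VIM lay between 9614 and 15519 normalized counts and CD44 between 12072 and 18435, while CDH1 stayed between 33.6 and 64.1. ERBB2 was not low, at 559 to 914. ESR1 and EPCAM had no values among the genes with a symbol, and PGR, under the filter on low values, is described at the end. Leukocyte markers were low, with summed levels of 174 to 231 in VEH and 119 to 149 in DEX over the 8 of 17 markers in the table, and 4 of them could be tested. VWF, an endothelial marker, did not exceed 5.22.

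A large number of genes differed between DEX and VEH. Of 13616 genes tested, 2386 passed an adjusted p of 0.05 (17.5% of the genes tested), 1294 higher in DEX (9.5%) and 1092 lower (8.02%). Without DEX replicate 1 the count was 865 (6.35%), 474 higher (3.48%) and 391 lower (2.87%). A total of 831 genes were called in both fits in the same direction (6.1%), 460 higher (3.38%) and 371 lower (2.72%). Rises were steeper than falls: 402 of the called genes were higher by at least 2-fold and 49 by at least 8-fold, against 309 and 3 that were lower by as much. Leaving out VEH replicate 1, 2 or 3 gave 1326, 1055 and 960 calls, and leaving out DEX replicate 2 or 3 gave 1187 and 3620. The 3 VEH and 3 DEX values did not overlap in 3211 genes with DEX higher (23.6%) and in 2737 with DEX lower (20.1%).

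**Figure D1:**
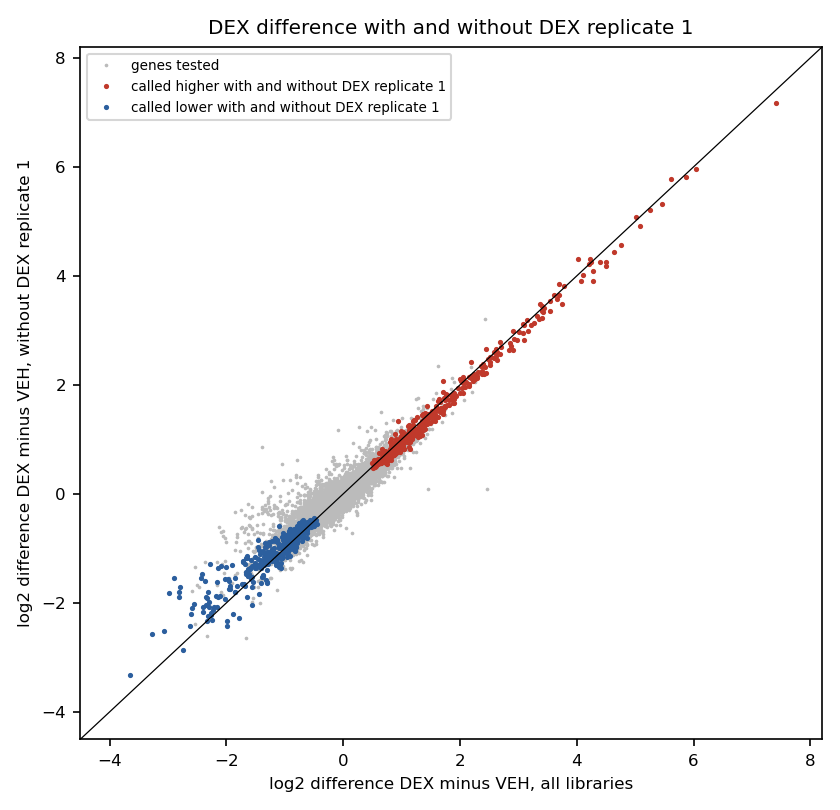
Log2 difference of DEX and VEH for each gene tested, with all libraries (x axis) and without DEX replicate 1 (y axis). Colored points are the 460 genes called higher and the 371 called lower in both fits, and the line marks equal values. The rises lie along the line, while many of the genes that were lower with all libraries lie above it and so were closer to 0 without DEX replicate 1.

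The direction of the calls depended on the scaling. With the deposited scaling 54.2% of the called genes were higher, and the median log2 difference of all genes was 0.02. When each library was set to the same total over named genes, the median moved to -0.11, 691 genes were called higher and 2312 lower, and the share higher was 23.0%. Quantile normalization gave 1237 higher and 1845 lower. With the replicate number as a block, 5925 genes were called (43.5%), 3254 higher (23.9%) and 2671 lower (19.6%). These shares are the background for every count with the replicate block given for a gene list below. The genes with large changes named below kept their direction under each of these settings.

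The gene with the largest rise was PDK4, the kinase that shuts off pyruvate dehydrogenase and so spares glucose (GRCh38 chromosome 7, 95583499 to 95596516). It gave 7.95, 3.05 and 10.9 normalized counts in VEH replicates 1, 2 and 3 and 1797, 1195 and 992 in DEX. The 2 groups were far apart in every library, and the difference was 7.41 in log2 units (SE 0.37, adjusted p = 1.40e-06 in limma), and 7.17 (adjusted p = 1.25e-05) without DEX replicate 1. TSC22D3, which encodes the anti-inflammatory leucine zipper protein GILZ, gave 32.5, 12.6 and 39.1 in VEH and 909, 552 and 413 in DEX (log2 difference 4.49, SE 0.40, adjusted p = 4.98e-05). SGK1, a kinase that regulates ion channels and cell survival, gave 962, 491 and 758 in VEH and 17971, 15486 and 12035 in DEX (log2 difference 4.40, SE 0.23, adjusted p = 1.69e-06). SLC19A2, a thiamine transporter, rose from 77.6, 83.6 and 68.8 to 1931, 1508 and 1148 (log2 difference 4.27, SE 0.20, adjusted p = 1.16e-06). For each of these genes the lowest DEX value exceeded the highest VEH value by more than 10-fold.

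**Figure D2:**
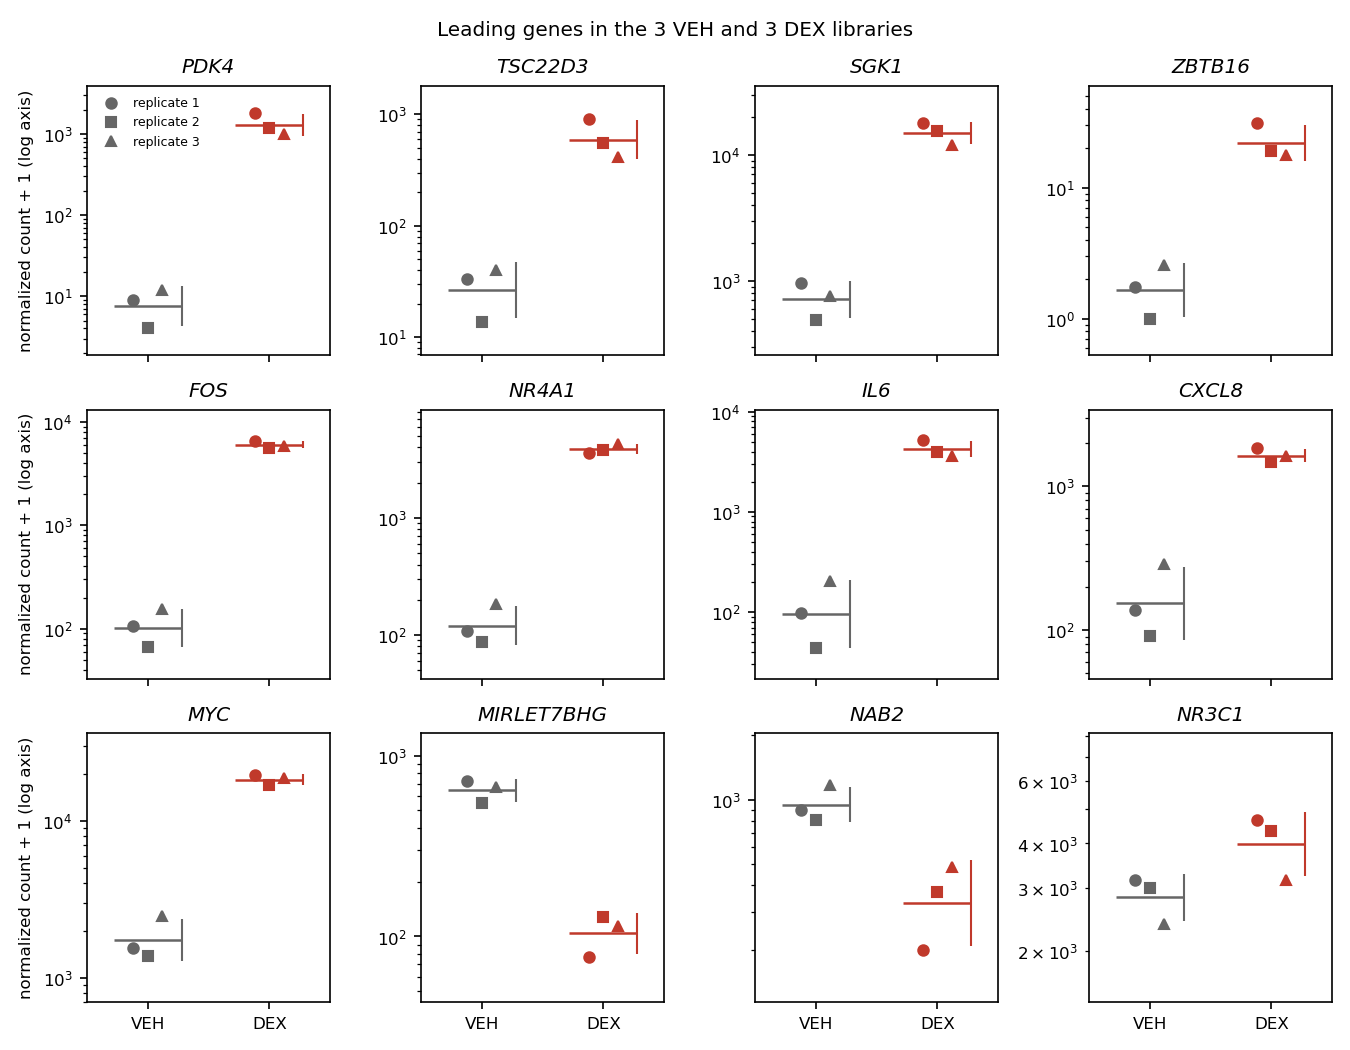
Normalized counts plus 1 (log axis) of 12 genes in each VEH library (gray) and each DEX library (red). Symbols mark the replicate number, horizontal lines the mean and vertical bars 1 SD on the log2 scale (n = 3). In all but NR3C1, whose values overlap, the 3 DEX values lie apart from the 3 VEH values.

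Of 54 genes on the list of glucocorticoid-induced genes, 52 were in the table and 48 were tested. Among them 35 were higher in DEX, none was lower and 13 did not pass, and 31 were higher both with and without DEX replicate 1. The background was 9.5% of all genes tested called higher. The median log2 difference over the 48 was 1.63, and 1.56 without DEX replicate 1, against 0.02 for all genes tested. The list shared 13 of the 48 with the lists of immediate early genes, MAPK feedback, NF-kB, metallothioneins or Kruppel-like factors. Of the 35 on none of these, 22 were higher and none was lower.

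ZBTB16, a zinc finger repressor and a classic steroid target, was nearly silent in VEH, with 0.757, 0 and 1.56 in the 3 libraries, and reached 30.5, 18.2 and 16.7 in DEX (log2 difference 3.74, SE 0.32, adjusted p = 4.80e-05). FKBP5, the cochaperone that binds the receptor complex and lowers its affinity for hormone, gave 9.46, 4.96 and 14.1 in VEH and 48.8, 30.99 and 44.9 in DEX (log2 difference 2.09, SE 0.35, adjusted p = 0.00339). PER1, a repressor of the circadian clock, rose from 431, 347 and 274 to 1071, 1274 and 1191 (log2 difference 1.77, SE 0.17, adjusted p = 9.90e-05), and KLF9, a Kruppel-like repressor, from 199, 174 and 244 to 2367, 2002 and 1625 (log2 difference 3.27, SE 0.17, adjusted p = 1.62e-06). CAVIN2, a coat protein of caveolae, rose from 6.05, 14.5 and 20.3 to 168, 112 and 130.5, and NFKBIA, the inhibitor that holds NF-kB in the cytoplasm, from 989, 701 and 872 to 4292, 3699 and 3823. TIPARP, an ADP-ribosyltransferase, rose by 1.82 on the log2 scale. These 7 genes had no value in DEX at or below a VEH value. Among members that did not pass, IRS2 differed by 0.84 (adjusted p = 0.0536), GLUL by 0.36 (0.0735) and GPX3 by -0.92 (0.0740). With the replicate block these 3 passed, with adjusted p-values of 0.00144, 0.0373 and 0.0405. Once trends of GC content and length were taken out, without the block, IRS2 passed (adjusted p = 0.000796). GLUL and GPX3 did not (0.509 and 0.148).

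The receptor itself did not pass the test. NR3C1 gave 3160, 3004 and 2380 in VEH and 4655, 4332 and 3152 in DEX, with overlapping groups, and differed by 0.50 in log2 units (SE 0.24, adjusted p = 0.152 in limma). With the replicate block its adjusted p was 0.0205. Once trends of GC content and length were taken out, without the block, the difference was 0.048 (adjusted p = 0.840). Of the 20 tested genes of the receptor, its chaperones and its coregulators, 3 were higher and 1 was lower, and 2 were higher in both fits, FKBP5 and NRIP1. With the replicate block 8 were higher and 3 lower. NRIP1, a corepressor of nuclear receptors, gave 183, 193 and 133 in VEH and 491, 420.2 and 360.1 in DEX (log2 difference 1.32, SE 0.21, adjusted p = 0.00261). The coactivator NCOA2 differed by 0.42 and was called with all libraries but not without DEX replicate 1 (adjusted p = 0.169).

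Immediate early genes rose together. All 36 on the list were tested; 29 were higher and 1 was lower, and 27 and 1 were so in both fits. The median log2 difference was 1.80, and 1.76 without DEX replicate 1. FOS, the partner of JUN in AP-1 (chromosome 14, 75278828 to 75282230), gave 104, 64.9 and 153 in VEH and 6528, 5629 and 5868 in DEX (log2 difference 5.87, SE 0.30, adjusted p = 1.62e-06). The nuclear receptor NR4A2 gave 74.9, 30.1 and 59.4 in VEH and 3905, 3783 and 2804 in DEX (log2 difference 6.05, SE 0.39, adjusted p = 5.89e-06), and its relative NR4A1 108, 86.2 and 181 in VEH and 3584, 3791 and 4316 in DEX (log2 difference 5.01, SE 0.31, adjusted p = 4.07e-06). NR4A3, the other member of this orphan receptor family, rose by 4.10. EGR1, a zinc finger activator, gave 587, 369 and 1002 in VEH and 10857, 10815 and 11613 in DEX (log2 difference 4.20, SE 0.34, adjusted p = 3.26e-05). In each of these genes the lowest DEX value was more than 10-fold above the highest VEH value. DEX replicate 1 had the highest DEX value in FOS and NR4A2 and the lowest in NR4A1.

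The rise was uneven across the list. JUN rose by 1.38 (SE 0.19), from 3596, 3040 and 3831 to 8270, 9892 and 9038, and IER2, an early response regulator, by 0.79 (SE 0.19); IER2 missed the threshold without VEH replicate 1 or 2 or DEX replicate 2 (adjusted p = 0.0681, 0.0747 and 0.0737). The only member that fell was NAB2, a corepressor of EGR1 that EGR proteins induce, with 898, 807 and 1166 in VEH and 198, 372 and 485 in DEX (log2 difference -1.52, SE 0.28, adjusted p = 0.00611). Its 3 DEX values spread widely, the lowest in DEX replicate 1, and without that library it fell by 1.15 (adjusted p = 0.00824). The other 6 members of the list did not pass the test.

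Of 22 tested genes of MAPK feedback, which dampen MAP kinase signaling, 11 were higher and none was lower, 9 in both fits, with a median of 0.65. DUSP1, the phosphatase that inactivates p38 and JNK and a known glucocorticoid target, gave 549.9, 245 and 370.4 in VEH and 6992, 7638 and 6478 in DEX (log2 difference 4.25, SE 0.26, adjusted p = 3.89e-06). ERRFI1, an inhibitor of the EGF receptor, rose by 2.38, PHLDA1, an early response gene, by 2.04, SPRY2, an inhibitor of RAS signaling, by 1.80, and DUSP6, the ERK phosphatase, by 1.76. Among 9 tested members of the EGF receptor family, 4 were higher, of which HBEGF alone passed in both fits. HBEGF, an EGF receptor ligand, gave 128, 126 and 208 in VEH and 805, 499 and 598 in DEX (log2 difference 2.05, SE 0.27, adjusted p = 8.04e-04). Its relative AREG was low throughout, with 1.51, 0 and 7.81 in VEH and 18.3, 20.96 and 20.9 in DEX (log2 difference 2.90, SE 0.70, adjusted p = 0.0196), and it was under the filter on low values without DEX replicate 1 and missed the threshold without VEH replicate 1 or 2 (adjusted p = 0.0552 and 0.0619).

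Promoter windows of 300 bases, from 250 before to 50 after the start, were available from RefSeq (GRCh38.p14) for 10464 of the 13616 genes tested. The full palindrome of the glucocorticoid response element, GAACANNNTGTTC, was in none of them on either strand. Its half-site AGAACA was in 8.68% of all windows, in 9.38% of the 352 windows of genes called higher in both fits, in 7.25% of the 262 of genes called lower, and in 2 of 43 windows of glucocorticoid-induced genes (4.65%). The cAMP response element TGACGTCA was in 3.32% of all windows, 3.98% of the 352 and 1.91% of the 262. The AP-1 site TGANTCA, which does not match that element, was in 4.48%, 5.68% and 7.63%. The CArG box, the site of serum response factor, was in 1.01%, 1.7% and 0.763%. In the 27 windows of immediate early genes the glucocorticoid half-site, the cAMP response element and the CArG box were each found in 2 (7.41%). The AP-1 site was in 1 of them (3.7%). In the 43 windows of glucocorticoid-induced genes the cAMP response element and the AP-1 site were each found in 1 (2.33%). The CArG box was in none of the 43. The promoters of 3 genes are shown, each chosen as a gene described above whose window holds one of these sites, with 250 bases before the start, 5′ to 3′ on the strand of the gene. Capitals mark the glucocorticoid half-site in PDK4, here on the opposite strand and so read as TGTTCT (chr7:95596517-95596766, minus strand), the cAMP response element in DUSP1 (chr5:172771196-172771445, minus strand) and the CArG boxes in EGR1 (chr5:138465229-138465478, plus strand).
PDK4: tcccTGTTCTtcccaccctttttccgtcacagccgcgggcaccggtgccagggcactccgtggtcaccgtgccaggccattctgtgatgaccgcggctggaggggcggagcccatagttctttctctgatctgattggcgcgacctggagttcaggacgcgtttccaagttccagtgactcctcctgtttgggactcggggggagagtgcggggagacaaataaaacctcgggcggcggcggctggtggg
DUSP1: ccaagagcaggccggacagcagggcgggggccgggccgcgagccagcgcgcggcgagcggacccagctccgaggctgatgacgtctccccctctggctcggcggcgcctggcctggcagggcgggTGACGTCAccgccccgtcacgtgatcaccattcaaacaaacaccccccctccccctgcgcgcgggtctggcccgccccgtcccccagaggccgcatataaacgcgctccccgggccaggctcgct
EGR1: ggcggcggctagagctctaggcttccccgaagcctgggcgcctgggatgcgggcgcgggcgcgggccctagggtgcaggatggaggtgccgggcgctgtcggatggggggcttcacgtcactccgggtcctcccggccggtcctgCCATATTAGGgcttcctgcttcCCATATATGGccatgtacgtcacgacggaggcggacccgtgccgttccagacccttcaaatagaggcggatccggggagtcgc
A match is a description of the letters. The half-site in PDK4 starts 246 bases before the start of the gene, the element in DUSP1 125 bases before it, and the CArG boxes in EGR1 105 and 83 bases before it.

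No cytokine gene known to be repressed by glucocorticoids was called lower in DEX, and several rose. Of the 32 on that list 21 were tested; 6 were higher, none was lower and 15 did not pass, with a median of 0.49. With the replicate block 10 were higher and 1 was lower. IL6, an inflammatory cytokine (chromosome 7, 22727200 to 22731998), gave 96.9, 42.7 and 203 in VEH and 5177, 4000 and 3625 in DEX (log2 difference 5.46, SE 0.46, adjusted p = 3.85e-05). The neutrophil chemokine CXCL2 gave 159, 105 and 313 in VEH and 5632, 4054 and 3541 in DEX (log2 difference 4.63, SE 0.35, adjusted p = 2.03e-05), and CXCL8 137, 89.3 and 288 in VEH and 1836, 1486 and 1615 in DEX (log2 difference 3.42, SE 0.38, adjusted p = 3.14e-04). The related chemokines CXCL3 and CXCL1 rose by 2.30 and 1.74. All 5 were higher in both fits, and in each the lowest DEX value lay above the highest VEH value. CCL20, a ligand of CCR6, gave 1.14, 0 and 3.13 in VEH and 48.8, 41.01 and 22.96 in DEX (log2 difference 4.16). It averaged 2.36 in KJ-PYR-9 and 2.73 in KJ-PYR-9+DEX, so it passed the filter on low values only through the DEX libraries. Its call, 1 of the 6, thus rests on the group in which it was high. CCL20 fell under the filter when DEX replicate 1 was left out. PTGS2, the inducible cyclooxygenase, gave 17.03, 6.11 and 29.7 in VEH and 48.8, 34.6 and 49.1 in DEX and did not pass (log2 difference 1.499, SE 0.72, adjusted p = 0.149), while edgeR on the recovered reads gave an adjusted p of 0.0433. CCL2, a monocyte chemokine, gave 53.4, 23.7 and 45.3 in VEH and 39.7, 34.6 and 25.1 in DEX, with overlapping groups (log2 difference -0.24, SE 0.31, adjusted p = 0.577).

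Of 25 NF-kB subunits and feedback genes, 7 were higher and 3 lower, 4 and 2 in both fits, and the list had a median of -0.08, which was 0.11 once trends of GC content and length were taken out. With the replicate block 8 were higher and 7 lower. Several inhibitors were among the higher genes. BIRC3, an inhibitor of apoptosis, rose by 2.41, NFKBIA by 2.22 and TNFAIP3, the deubiquitinase A20, by 1.66. The adaptor TRAF2 fell by 1.003 and the kinase IKBKE by 0.63, both also without DEX replicate 1. The 34 tested genes of the type I interferon response held no call, and 7 were higher and 1 lower with the replicate block.

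MYC, the growth-promoting transcription factor, was among the abundant transcripts that rose. It gave 1551, 1378 and 2490 in VEH and 19573, 16916 and 18783 in DEX, a difference of 3.40 in log2 units (SE 0.21, adjusted p = 4.07e-06 in limma), and 3.35 (adjusted p = 4.87e-05) without DEX replicate 1. Every DEX value was more than 6-fold above every VEH value. Of the 12 tested genes of the MYC network 3 were higher and 3 lower, and MYC was the only one called in both fits. MXD1, which competes with MYC for its partner, rose by 0.60 and MGA, a repressor that binds MYC sites, by 0.54, and both lost their call without DEX replicate 1 (adjusted p = 0.0793 and 0.0532). Ribosome biogenesis genes, which are well known MYC targets, had 3 higher and 2 lower of 34 and a median of -0.0012, which was 0.058 without DEX replicate 1, and 9 were higher and 4 lower with the replicate block.

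Metallothioneins, small proteins that bind zinc and copper, were higher as a group: of 11 tested genes of metallothioneins and zinc transporters 9 were higher and none lower, 7 in both fits, with a median of 1.67. MT1X gave 79.5, 116 and 189 in VEH and 1245, 916 and 965 in DEX (log2 difference 3.09, SE 0.30, adjusted p = 1.10e-04), MT1E 116, 284 and 474 in VEH and 1644, 1374 and 1679 in DEX (log2 difference 2.64, SE 0.42, adjusted p = 0.00281) and MT2A 2387, 3533 and 4866 in VEH and 8957, 8699 and 9682 in DEX (log2 difference 1.40, SE 0.23, adjusted p = 0.00318). MT1G was low, with 2.27, 2.67 and 1.56 in VEH and 30.5, 26.4 and 41.8 in DEX. The metallothionein genes are near-identical copies, so reads could be split between them and the level of each is uncertain. SLC30A1, the zinc exporter of the plasma membrane, rose from 409, 587 and 513 to 1937, 1384 and 1482 (log2 difference 1.67, SE 0.20, adjusted p = 5.70e-04).

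Of 14 Kruppel-like factors 9 were higher and 1 lower, 7 and 0 in both fits, with a median of 0.90. The lists overlap, so their counts are not separate results. KLF6 and KLF4 are also among the immediate early genes, as are BTG2, CCN2 and MCL1, named below under other lists. KLF6, a tumor suppressor and early response gene, gave 3301, 2639 and 4112 in VEH and 28295, 25662 and 21501 in DEX (log2 difference 2.92, SE 0.17, adjusted p = 3.86e-06), and KLF4, a pluripotency factor, rose by 2.24. KLF15, a partner of the glucocorticoid receptor in metabolism, was low, with 1.14, 1.14 and 3.13 in VEH and 9.15, 8.203 and 12.5 in DEX (log2 difference 2.02, SE 0.32, adjusted p = 0.00264). Its mean over VEH and DEX was 5.88, and it passed the filter on low values through KJ-PYR-9+DEX, where its mean was 29.5. KLF16 differed by -0.60 and was not called without DEX replicate 1 (adjusted p = 0.103). Among 22 genes of the FOXO, insulin and nutrient response 10 were higher and none lower, 7 in both fits, with a median of 0.72. TXNIP, an inhibitor of thioredoxin and of glucose uptake, rose from 29.1, 34.3 and 76.6 to 329, 192 and 209 (log2 difference 2.45, SE 0.35, adjusted p = 0.00139). The arrestin ARRDC3 rose by 2.37, the pseudokinase TRIB1 by 2.10 and the transcription factor FOXO1 by 0.99.

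**Figure D3:**
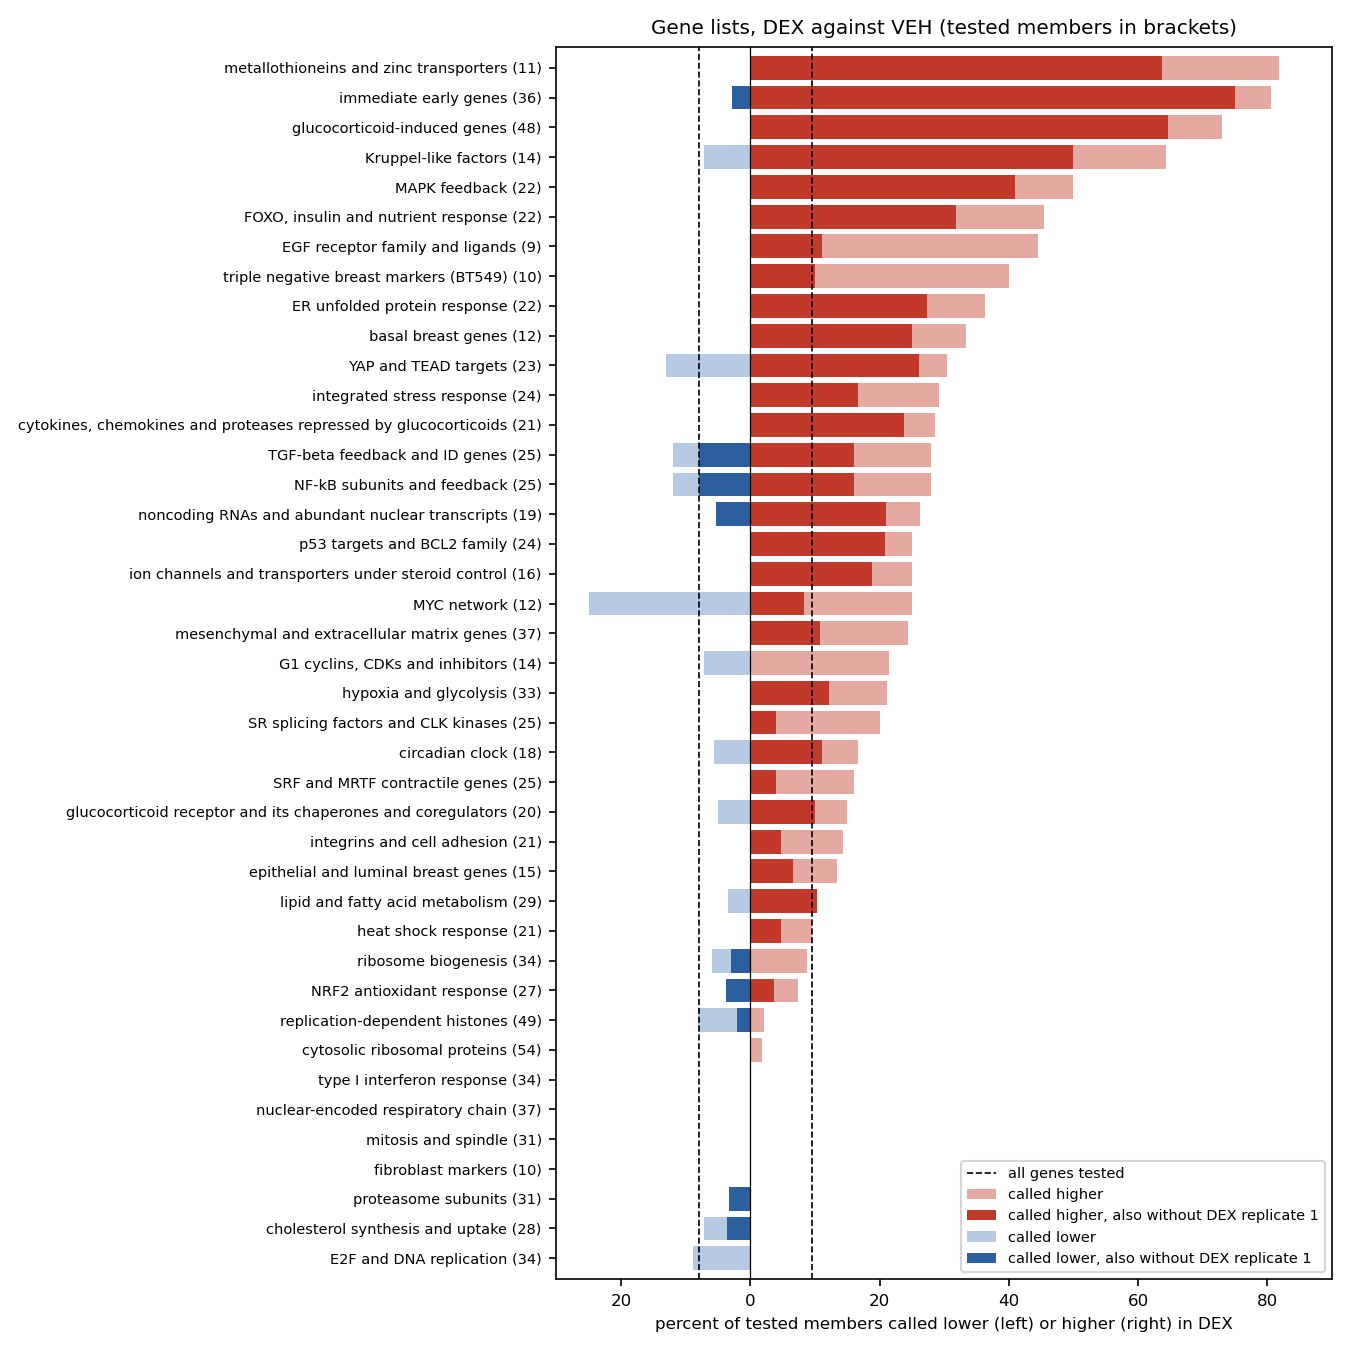
Percent of the tested members of each gene list that were called higher (right, red) or lower (left, blue) in DEX against VEH, with the part called in both fits in dark color. Lists with at least 9 tested members are shown, with that number in brackets, and dashed lines mark the 9.5% and 8.02% of all genes tested. Metallothioneins, immediate early genes and glucocorticoid-induced genes reach the highest shares, while interferon, respiratory chain and mitosis lists have no call.

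Of 37 mesenchymal and extracellular matrix genes 9 were higher and none lower, 4 in both fits, with a median of 0.16. Among those in both fits were 3 repressors of E-cadherin: ZEB2 gave 699.7, 577 and 661 in VEH and 3453, 2700 and 2544 in DEX (log2 difference 2.16, SE 0.15, adjusted p = 8.70e-06), SNAI2 647, 417 and 516 in VEH and 2642, 1803 and 1524 in DEX (log2 difference 1.90, SE 0.22, adjusted p = 4.46e-04) and ZEB1 1050, 915 and 902 in VEH and 2078, 1831 and 1866 in DEX (log2 difference 1.01, SE 0.16, adjusted p = 0.00262). VIM, an intermediate filament protein, differed by 0.45 and lost its call without DEX replicate 1 (adjusted p = 0.11). Among 12 basal breast genes 4 were higher, 3 in both fits; SOX9, a progenitor factor, rose from 1046, 544 and 828 to 4481, 3963 and 2727 (log2 difference 2.23, SE 0.23, adjusted p = 1.89e-04) and FOXC1, a marker of basal tumors, by 1.08. The replicate block gave 7 higher basal genes.

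Among 25 genes of TGF-beta signaling and its feedback 7 were higher and 3 lower, 4 and 2 in both fits. INHBA, a subunit of activin, rose by 2.15, the corepressor TGIF1 by 2.06 and the ligand TGFB2 by 1.40. SMAD7, the inhibitory SMAD, gave 709, 675 and 852 in VEH and 238, 373 and 347 in DEX and fell by 1.24 (SE 0.18, adjusted p = 0.00181). The block gave 13 higher and 4 lower. Of 23 YAP and TEAD targets 7 were higher and 3 lower, 6 and 0 in both fits. F3, the tissue factor that starts coagulation, gave 3.03, 2.29 and 0 in VEH and 76.3, 38.3 and 31.3 in DEX (log2 difference 4.28, SE 0.55, adjusted p = 7.61e-04), and CCN2, a matricellular protein, rose by 2.25. For these targets the block gave 10 higher and 6 lower.

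Genes of stress and survival were partly higher. In the unfolded protein response of the endoplasmic reticulum 8 of 22 were higher and none lower, 6 in both fits. EIF2AK3, the sensor kinase PERK, rose by 1.30 and XBP1, a transcription factor of this response, by 0.95, the latter with an adjusted p of 0.0587 once trends of GC content and length were taken out. In the integrated stress response 7 of 24 were higher, 4 in both fits and 14 with the replicate block, and PPP1R15A, which returns eIF2 to its active form, rose by 1.14. Among 24 p53 targets and BCL2 family genes 6 were higher and none lower, 5 in both fits. BCL2L11, the proapoptotic protein BIM, gave 189.6, 158 and 209 in VEH and 1086, 862 and 809 in DEX (log2 difference 2.30, SE 0.16, adjusted p = 9.86e-06), and BTG2, an antiproliferative gene, 8.704, 9.16 and 1.56 in VEH and 85.4, 72.00 and 85.6 in DEX (log2 difference 3.69, SE 0.42, adjusted p = 3.23e-04). The prosurvival gene MCL1 rose by 0.83 and the proapoptotic PMAIP1 by 1.32. Among these 24 genes the block gave 9 higher and 2 lower.

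Of 18 circadian clock genes 3 were higher and 1 lower, 2 and 0 in both fits. NFIL3, a repressor of clock output, rose by 1.78, and CRY2, a clock repressor, differed by -0.62 without a call when DEX replicate 1 was left out (adjusted p = 0.0702). Of 19 noncoding RNAs 5 were higher and 1 lower, 4 and 1 in both fits, and 10 and 1 with the replicate block. NEAT1, the scaffold of paraspeckles, gave 4275, 2909 and 3943 in VEH and 21385, 19845 and 25093 in DEX (log2 difference 2.59, SE 0.23, adjusted p = 4.93e-05), and MIR22HG, the host gene of miR-22, gave 281, 267 and 278 in VEH and 171, 167 and 149 in DEX and fell by 0.76 (SE 0.12, adjusted p = 0.00291).

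The following lists of growth and cell cycle genes held few higher calls in the fit without the replicate block. In that fit 9.5% of all genes tested were higher and 8.02% lower. The shares of lower genes among E2F, histone and cholesterol genes, 8.82%, 8.16% and 7.14%, lay close to the latter. Of 54 cytosolic ribosomal protein genes 1 was higher, RPS6 (log2 difference 0.46, SE 0.13, adjusted p = 0.0386), and it was not called without DEX replicate 1 (adjusted p = 0.13). The list had a median of 0.14 that turned to -0.01 under quantile normalization, and 16 were higher and 3 lower with the replicate block. None of 37 nuclear-encoded respiratory chain genes and none of 31 genes of mitosis and the spindle was called. With the block 5 respiratory chain genes were higher and 5 lower, and 14 mitosis genes were higher and 3 lower. Of all genes tested 23.9% were higher and 19.6% lower with the block. The mitosis genes exceeded that share of higher genes, and the respiratory chain genes did not. Without the block the median of the mitosis genes was 0.30. It was 0.04 once trends of GC content and length were taken out, and no mitosis gene was called then. Among 31 proteasome subunits PSMA2 was called, with 51.1, 56.1 and 45.3 in VEH and 12.2, 18.2 and 10.4 in DEX (a fall by 1.86, adjusted p = 0.00739), against 4 higher and 5 lower with the block. Of 34 E2F and DNA replication genes 3 were lower and none was so without DEX replicate 1; UHRF1, a reader of hemimethylated DNA, differed by -0.84. With the block 6 were higher and 7 lower. Of 49 replication-dependent histone genes 4 were lower and 1 was higher, and H3C1 was the one called lower in both fits (log2 difference -1.05, SE 0.22, adjusted p = 0.0107), while 15 were lower and 2 higher with the block. Histone genes are near-identical copies, so their levels are uncertain. Of 28 cholesterol genes 2 were lower, and mevalonate kinase, MVK, was so in both fits, with 567, 493 and 497 in VEH and 287, 318 and 340.3 in DEX, and 4 were higher and 7 lower with the block.

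Of 33 genes of hypoxia and glycolysis 7 were higher and none lower, 4 in both fits, and 10 and 2 with the block. Of 25 SR splicing factors and CLK kinases 5 were higher, 1 in both fits, and 9 were higher and 3 lower with the block; their median of 0.22 turned to -0.13 once trends of GC content and length were taken out. Of 25 contractile genes driven by SRF and MRTF 4 were higher, 1 in both fits, and of 16 channels and transporters under steroid control 4 were higher, 3 in both fits. The heat shock response had 2 of 21 higher (1 in both fits), the NRF2 response 2 higher and 1 lower of 27 (1 and 1), and lipid metabolism 3 higher and 1 lower of 29 (3 and 0). These shares of higher genes, 9.52%, 7.41% and 10.3%, lay close to the 9.5% of all genes tested.

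Few markers of other cells could be tested. Those called were lower in DEX: 1 of 4 leukocyte and 2 of 2 adipocyte markers, against 8.02% of all genes tested. Among leukocyte markers CSF1R, the receptor of macrophage colony stimulating factor, fell from 25.4, 24.8 and 31.3 to 3.05, 4.56 and 9.39 (log2 difference -2.18, SE 0.35, adjusted p = 0.00302). PTPRC, another leukocyte marker, went the other way at a level under the filter on low values, with 7.19, 5.72 and 6.25 in VEH and 18.3, 11.8 and 10.4 in DEX. Both tested adipocyte markers were lower, the lipid droplet protein PLIN4 with 45.8, 41.97 and 67.2 in VEH and 6.101, 6.38 and 16.7 in DEX (log2 difference -2.40, SE 0.32, adjusted p = 0.00102) and the lipase LIPE with 57.9, 76.7 and 87.5 in VEH and 24.4, 41.01 and 46.98 in DEX, which lost its call without DEX replicate 1. None of 10 fibroblast markers, whose summed level was 37261 to 52627 in VEH and 34454 to 35601 in DEX, was called. The replicate block gave 3 of the 4 leukocyte and 2 of the 10 fibroblast markers as lower, against 19.6% of all genes tested. The part of other cells in the results was not tested.

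The largest falls were smaller than the largest rises. Among genes called in both fits, with a mean of at least 50 and without overlap, MIRLET7BHG fell the most. This noncoding RNA hosts let-7 microRNAs (chromosome 22, 46085997 to 46113928), and it gave 726, 545 and 672 in VEH and 76.3, 127 and 113 in DEX (log2 difference -2.63, SE 0.20, adjusted p = 1.96e-05). TRIM17, a ubiquitin ligase, gave 93.8, 85.5 and 87.5 in VEH and 6.101, 17.3 and 26.1 in DEX, with a fall by 2.56 that was 2.01 without DEX replicate 1. EGLN2, an oxygen-sensing prolyl hydroxylase, gave 265, 259 and 324 in VEH and 39.7, 82.03 and 109 in DEX and fell by 1.97, and by 1.56 without that library. In both genes DEX replicate 1 had the lowest value.

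The other 9 of the 12 genes with the largest falls were the pseudogene TSSK5P (-2.02), the transcription factor ZIC4 (-1.66), FAXDC2 (-1.63), the antisense RNAs HOXC-AS2 (-1.61) and RUSC1-AS1 (-1.51), the membrane protein TTYH1 (-1.60), the smooth muscle myosin MYH11 (-1.57), LOC100128398 (-1.57) and NAB2 (-1.52), each value a log2 difference. MYH11 gave 80.2, 83.2 and 64.1 in VEH and 24.4, 20.96 and 29.2 in DEX, so the groups were separate at a low level. The strand setting of the counting was not given in the sources used here, so reads of an antisense RNA and of the gene opposite cannot be told apart. Among the 12 largest rises, those not yet named were LINC01504, a noncoding RNA that gave 12.1, 11.4 and 14.1 in VEH and 537, 480.3 and 519.9 in DEX (log2 difference 5.25, SE 0.40, adjusted p = 2.03e-05), and HAS2, the synthase of hyaluronan, that gave 129, 84.3 and 158 in VEH and 3783, 2706 and 1970 in DEX (log2 difference 4.49, SE 0.27, adjusted p = 4.07e-06).

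Differences moved with the GC content of the transcripts. Genes were divided into 5 equal bins by GC content. In the bin with the lowest GC content the median log2 difference was 0.50 (0.40 without DEX replicate 1), and in the bin with the highest it was -0.39 (-0.26). In the lowest bin 552 genes were called higher and 24 lower, and in the highest 42 higher and 451 lower. Against the VEH mean, the median of the lowest bin was 0.71 in DEX replicate 1, 0.58 in replicate 2 and 0.22 in replicate 3, and -0.16 to 0.09 in the VEH libraries. Once trends of GC content and length were taken out, 1265 of 13284 genes were called (9.52%), 627 higher (4.72%) and 638 lower (4.8%), and 909 of the 2386 calls passed in the same direction. The part of composition in these calls was not tested further. Among genes named above, ZEB1 (adjusted p = 0.11), PMAIP1 (0.141), VIM (0.0587), IKBKE (0.304), MVK (0.145) and H3C1 (0.109) missed the threshold after it, as did XBP1 and NCOA2 (0.294), KLF16 (0.439), CRY2 (0.177), MXD1 (0.34), MGA (0.0822), LIPE (0.0739) and RPS6 (0.733). The leading genes kept their direction: PDK4 was 6.94 and FOS 6.01 higher, and MIRLET7BHG was at -2.18.

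**Figure D4:**
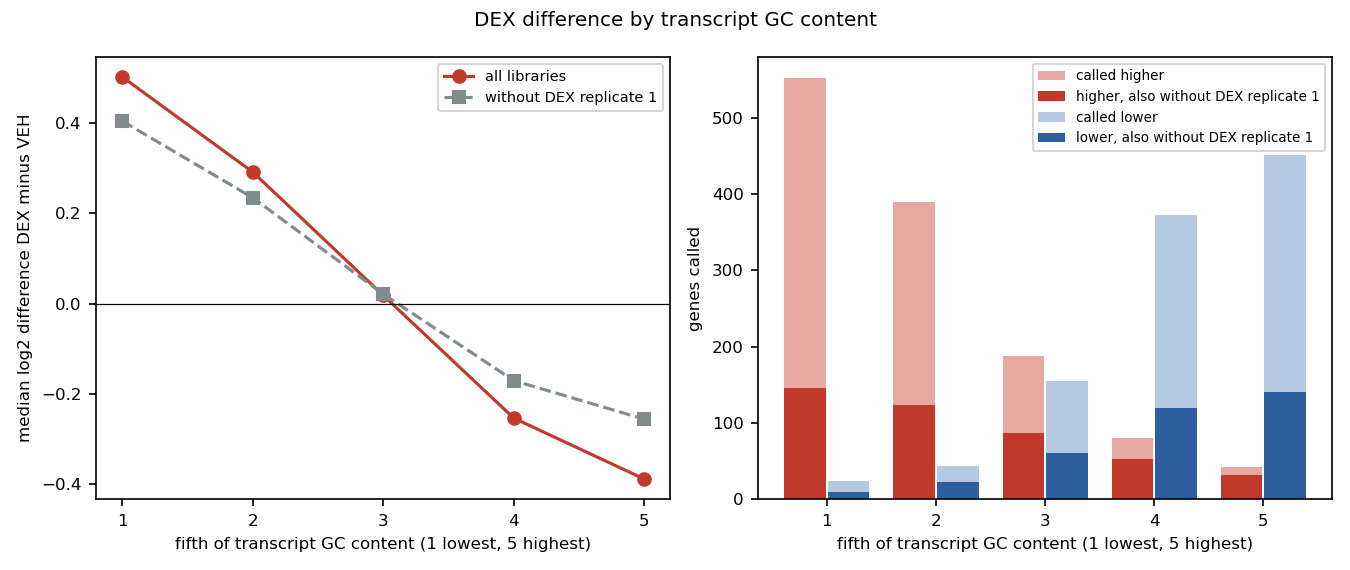
Left, median log2 difference of DEX and VEH in 5 bins of genes by transcript GC content, with all libraries (circles) and without DEX replicate 1 (squares). Right, genes called higher (red) and lower (blue) in each bin, with those called in both fits in dark color. The medians run from 0.50 to -0.39, and higher calls are most numerous in the lowest bin and lower calls in the highest.

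The difference made up by DEX in cells given KJ-PYR-9 was taken by comparing KJ-PYR-9+DEX with KJ-PYR-9. The log2 differences of DEX against VEH do not use these libraries. The filter and the estimate of the spread in the shared fit do. With the VEH and DEX libraries only, 1676 of 13554 genes were called in DEX against VEH. In KJ-PYR-9+DEX against KJ-PYR-9, 1028 genes were called (7.55%), 431 higher (3.17%) and 597 lower (4.38%), and 2018 with the replicate block. Of the 460 genes called higher in both fits of DEX against VEH, 70 were also called higher with KJ-PYR-9 and 149 were called lower. Of the 371 called lower, 2 were also called lower and 89 higher. The test of the difference between the 2 comparisons, the interaction, called 2283 genes (16.8%), 973 with a positive value (7.15%) and 1310 with a negative one (9.62%), and 4399 with the replicate block. Of the 831 genes called in both fits, 698 were among them. The interaction contains the same difference of DEX and VEH that picked these 831 genes, so this share is not independent of that choice.

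The glucocorticoid-induced genes divided in this comparison. Of its 35 members that were higher in DEX, 17 were higher with KJ-PYR-9 too and 6 were lower, and the interaction was negative in 22 (62.9%) and positive in 3. Of all 1294 genes higher in DEX, 101 were higher with KJ-PYR-9 (7.81%) and 240 lower (18.5%), and the interaction was negative in 823 (63.6%). In 17 of the 48 tested members all 6 libraries with DEX lay above all 6 without it, against 0.98% of all genes tested. TSC22D3 gave 38.9, 22.6 and 37.3 in KJ-PYR-9 and 1589, 1279 and 1395 in KJ-PYR-9+DEX (log2 difference 5.42, SE 0.40, adjusted p = 1.27e-05), and the interaction did not pass (adjusted p = 0.285). For ZBTB16 and FKBP5 the difference was larger with KJ-PYR-9: ZBTB16 gave 1.25, 1.19 and 1.62 in KJ-PYR-9 and 134, 147 and 204 in KJ-PYR-9+DEX and FKBP5 10.04, 4.16 and 5.67 in KJ-PYR-9 and 177, 164 and 136 in KJ-PYR-9+DEX, and the interactions passed (adjusted p = 0.00577 and 0.00835). PDK4 rose by 4.91 with KJ-PYR-9, less than without it (interaction adjusted p = 0.00813). SGK1 and DUSP1 were lower in KJ-PYR-9+DEX than in KJ-PYR-9, by -1.25 and -0.97 on the log2 scale (adjusted p = 0.00684 and 0.0424).

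Many immediate early genes that were higher in DEX were lower with KJ-PYR-9. Of the 29 that were higher in DEX, 18 were lower in KJ-PYR-9+DEX than in KJ-PYR-9 (62.1%), 1 was higher and 10 did not pass, and the interaction was negative in 28 (96.6%), against the 18.5%, 7.81% and 63.6% lower, higher and negative of all genes higher in DEX. FOS gave 21736, 13909 and 16940 in KJ-PYR-9 and 279, 157 and 257 in KJ-PYR-9+DEX, NR4A1 10981, 8028 and 9308 in KJ-PYR-9 and 273, 119.8 and 185 in KJ-PYR-9+DEX and EGR1 30810, 21391 and 26951 in KJ-PYR-9 and 955, 531 and 1073 in KJ-PYR-9+DEX. In these 3 genes every KJ-PYR-9 value lay above every DEX value, and the KJ-PYR-9+DEX values overlapped those of VEH in NR4A1 and EGR1 and lay just above them in FOS. IL6 gave 2001, 1795 and 2308 in KJ-PYR-9 and 96.3, 55.3 and 118 in KJ-PYR-9+DEX and CXCL8 559, 436 and 717 in KJ-PYR-9 and 26.1, 25.3 and 49.1 in KJ-PYR-9+DEX, and of the 6 cytokine genes higher in DEX 5 were lower and none was higher with KJ-PYR-9. MYC gave 10272, 8283 and 11004 in KJ-PYR-9 and 4304, 3666 and 4510 in KJ-PYR-9+DEX (log2 difference -1.24, SE 0.21, adjusted p = 0.00395; interaction adjusted p = 4.38e-06). Among all 12 libraries MYC was thus highest in the 3 DEX libraries. The group labels were taken as given. In NR4A2 the KJ-PYR-9 mean (2868) lay nearest that of DEX (3497), and the KJ-PYR-9+DEX mean (109) nearest VEH (54.8). MIRLET7BHG was alike (222, 105, 775 and 648 in the same order). UHRF1 was not: KJ-PYR-9 (3478) lay nearest KJ-PYR-9+DEX (3260), and DEX (1070) nearest VEH (1889). Whether labels were exchanged between the DEX libraries and those given both compounds was not tested.

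**Figure D5:**
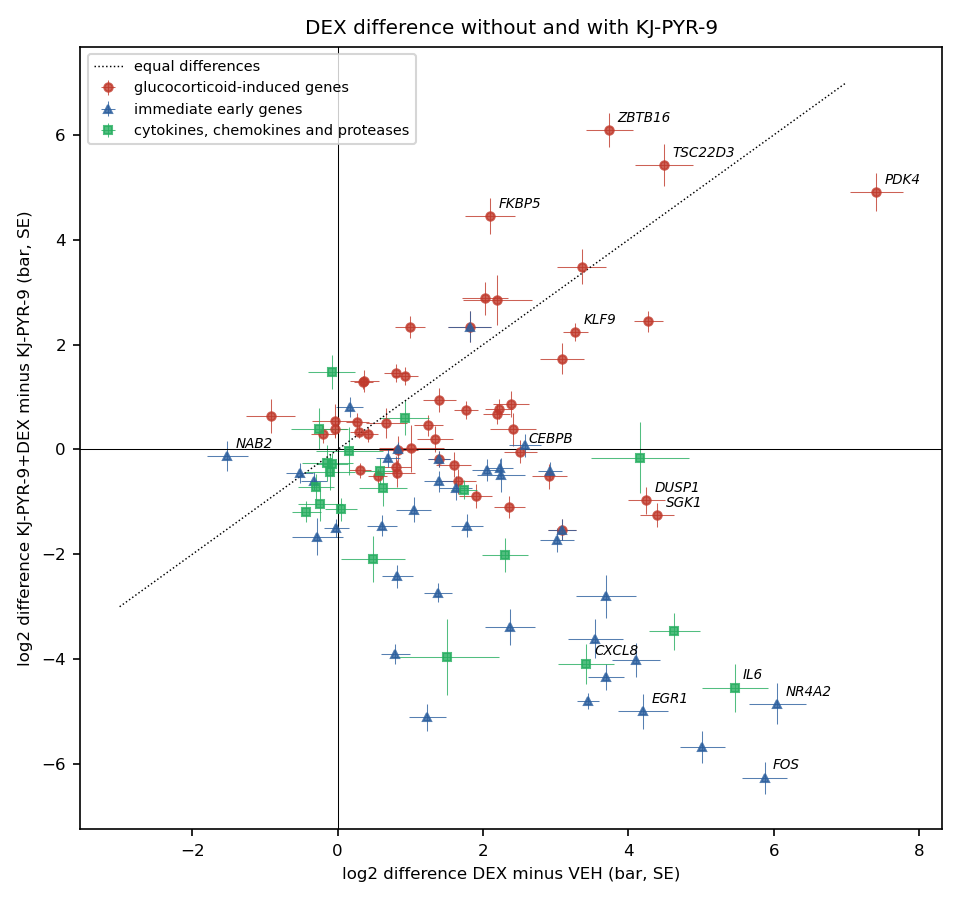
Log2 difference of DEX and VEH (x axis) against that of KJ-PYR-9+DEX and KJ-PYR-9 (y axis), with SE bars, for the tested glucocorticoid-induced genes (red circles), immediate early genes (blue triangles) and cytokine, chemokine and protease genes (green squares). The dotted line marks equal differences. PDK4, TSC22D3, ZBTB16 and FKBP5 are higher on both axes, while FOS, NR4A2, EGR1, IL6 and CXCL8 are higher on the x axis and lower on the y axis.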

How the data were processed

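RNA extracted with Tri-reagent and depleted of ribosomal RNA was sequenced on an Illumina NovaSeq, per the labels' protocols. The deposited values are normalized counts (a signal per gene, not whole numbers), and GRCh38, bcl2fastq, SAMtools, featureCounts and DESeq2 were used per the submitters' processing notes; the aligner, the annotation and the strand setting are not given in the sources used here. Of 24290 features, 6462 had no symbol and 32 repeated one, which left 17796 genes. All deposited values were whole multiples of 1 step per library (tolerance 0.0001), so reads could be recovered. On these reads edgeR 4.0.16 called 2918 genes, 2264 of them shared in the same direction with the calls below.

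The 12 libraries of the inhibitor experiment were fitted with limma 3.58.1 (R 4.3.3) on log2(value + 1) for the 13616 genes with a mean of at least 10. A fold change on this scale understates that of low genes. Tests were two-sided with Benjamini-Hochberg adjustment over all genes tested and a threshold of 0.05. Same-numbered libraries deviated together, with a correlation of deviations from the group means of 0.130 to 0.524 in 18 pairs, over 0.1 in each. In 36 pairs of other numbers it was -0.468 to 0.236, and 5 were over 0.1. Some of these exceeded the pairs of replicate 1: DEX 1 gave 0.236 with KJ-PYR-9+DEX 2 and 0.211 with KJ-PYR-9+DEX 1. The replicate numbers were used as a block on the strength of these values and the labels. The values bear out the pairing less for replicate 1, and the labels do not give the meaning of the numbers. P-values measure only the spread between these libraries, which may be technical. Members and gene lists were chosen with earlier results of these data known. Genes named were MYC, NR3C1, the 12 largest rises and falls among genes called with and without DEX replicate 1 whose VEH and DEX values did not overlap and averaged 50 or more, and members of each list called in its main direction, up to 4 by size, with others for their role. IRS2, GLUL, GPX3 and RPS6 were named after their values were seen. Promoter windows came from RefSeq, and the cAMP response element, AP-1 site and CArG box were added to the search after the data were seen. The other 12 libraries of the series were left out. Alternatives were other scalings, pseudocounts and filters, leaving out each VEH or DEX library, array quality weights, a trended variance, the replicate block, removal of GC content and length trends (spline with 5 degrees of freedom), edgeR, and DESeq2 1.42.0. Some items are not reported here.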

Additional observations from a re-analysis of the deposited data

Results flagged for a closer look

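The log2 difference with KJ-PYR-9 (KJ-PYR-9+DEX minus KJ-PYR-9) was set against that without it (DEX minus VEH), by the interaction term of the limma fit, with 3 libraries a group. The genes below are those of the comparisons above whose 2 differences differed at an adjusted p of 0.05; genes described only under other observations are not among them. Each value is the difference with KJ-PYR-9 minus that without it. A negative value thus means that the difference was lower with KJ-PYR-9, whether as a smaller rise, a larger fall or a rise that became a fall. Each value contains the difference of DEX and VEH, by which many of these genes were chosen. Each also takes the group labels as given.

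Among immediate early genes the values were FOS (-12.13), NR4A2 (-10.9), NR4A1 (-10.69), EGR1 (-9.2), NR4A3 (-8.117), BTG2 (-6.496), IER2 (-4.696), JUN (-4.11), KLF6 (-3.334), CCN2 (-2.732), KLF4 (-2.585), MCL1 (-0.8113) and NAB2 (1.394). Among cytokine genes the values were IL6 (-10.01), CXCL2 (-8.104), CXCL8 (-7.507), PTGS2 (-5.454), CCL20 (-4.317), CXCL3 (-4.317) and CXCL1 (-2.503). Among glucocorticoid-induced genes the values were SGK1 (-5.649), DUSP1 (-5.216), SNAI2 (-2.785), PDK4 (-2.5), TNFAIP3 (-2.27), BIRC3 (-2.027), SLC19A2 (-1.828), ERRFI1 (-1.52), NFKBIA (-1.44), KLF9 (-1.035), PER1 (-1.015), GLUL (0.9278), FOXO1 (1.345), GPX3 (1.563), ZBTB16 (2.355) and FKBP5 (2.359). Among MAPK feedback and EGF receptor ligands the values were AREG (-5.947), HBEGF (-5.933), DUSP6 (-4.548), SPRY2 (-3.337) and PHLDA1 (-2.312).

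Among NF-kB, TGF-beta and YAP genes the values were INHBA (-4.045), TGIF1 (-2.828), TGFB2 (-2.57), SMAD7 (0.8597) and TRAF2 (1.365). Among mesenchymal and basal breast genes the values were SOX9 (-3.484), FOXC1 (-3.07), ZEB1 (-1.571), ZEB2 (-1.074) and VIM (-0.8678). Among Kruppel-like factors, metallothioneins and FOXO genes the values were MT1G (-5.192), ARRDC3 (-4.89), SLC30A1 (-3.333), TRIB1 (-3.14) and KLF16 (0.9793). Among stress, survival and unfolded protein response genes the values were PPP1R15A (-3.402), PMAIP1 (-3.248), EIF2AK3 (-2.083), XBP1 (-1.988) and BCL2L11 (-1.248).

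Of the other genes, those with a negative value were NEAT1 (-4.688), MYC (-4.635), LINC01504 (-4.406), HAS2 (-4.193), NFIL3 (-3.573), MXD1 (-2.182), NRIP1 (-1.817), MGA (-0.7808), RPS6 (-0.735) and NCOA2 (-0.7327). Those with a positive value were H3C1 (1.169), MIR22HG (1.493), CSF1R (1.765), TTYH1 (2.094), RUSC1-AS1 (2.313), LOC100128398 (2.648), FAXDC2 (2.651), ZIC4 (2.656), HOXC-AS2 (2.778), TSSK5P (3.038), MYH11 (3.227), EGLN2 (3.28), PLIN4 (3.537), MIRLET7BHG (4.422), PSMA2 (4.646) and TRIM17 (4.711), and these genes were lower in DEX than in VEH.

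DEX replicate 1 had 26.04% of its reads in features without a gene symbol, data that the comparisons do not use, against at most 1.86% in the VEH libraries.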

How the results depend on the processing

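The count of 2386 genes for DEX against VEH ranged from 865 (without DEX replicate 1) to 3620 (without DEX replicate 3) when 1 library was left out. In the interaction the same 6 exclusions gave 1583 to 2731. The 6 libraries with KJ-PYR-9 were not left out, so the effect of 1 library on KJ-PYR-9+DEX against KJ-PYR-9 was not tested. Array quality weights gave 5984 genes for DEX against VEH, 2040 with KJ-PYR-9 and 3765 in the interaction. The lowest weight was that of KJ-PYR-9+DEX replicate 3 (0.197), below that of DEX replicate 1 (0.418). DESeq2 on the recovered reads gave 3737 in DEX against VEH, and edgeR without DEX replicate 1, chosen after seeing the data, gave 1176. Removal of GC content and length trends gave 1265 in DEX against VEH and 1549 with KJ-PYR-9. The causes of these shifts were not tested. Leaving out a library leaves fewer samples.

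With the replicate block, which pairs libraries by number, the counts in the same order were 5925, 2018 and 4399. With the block and without DEX replicate 1, chosen after seeing the data, they were 3619, 2319 and 3623, and with the block and removal of GC content and length trends, also chosen then, the comparison with KJ-PYR-9 gave 2301. Among the genes named, the block changed the call of NR3C1, ERBB2, IRS2, GLUL and GPX3 only, which passed with it.

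Scaling moved the split of calls. The share of calls that were higher was 41.9% with KJ-PYR-9 and 42.6% in the interaction, and 65.4% and 75.9% with the same total over named genes. DEX replicate 1, at 5581666 reads, limits low genes the most.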

Other observations

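Of the genes called both with and without DEX replicate 1, 339 of the higher and 358 of the lower genes were on none of the 44 gene lists. The examples below were chosen from these after their values were seen. ZFAND5, a zinc finger protein that binds ubiquitin and promotes muscle protein breakdown, gave 1578, 1586 and 1355 normalized counts in VEH and 20473, 15616 and 12638 in DEX (log2 difference 3.41, SE 0.19, limma adjusted p = 2.58e-06), and it also rose by 2.26 in KJ-PYR-9+DEX against KJ-PYR-9. RASD1, a RAS-like GTPase known as a dexamethasone-induced gene, rose by 3.54, from 19.3, 12.2 and 32.8 to 308, 219 and 209, and by 2.13 with KJ-PYR-9. DKK1, a secreted WNT inhibitor, rose by 2.53, and RSPO2, a secreted WNT agonist, by 1.92. GAS1, a growth arrest gene, went from 3396, 2453 and 3088 to 11528, 12429 and 12867. PLEC, the abundant cytoskeletal linker plectin, fell from 35586, 40655 and 43771 to 12919, 16545 and 20536 (log2 difference -1.28, adjusted p = 0.00292).

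PGR, which encodes the progesterone receptor, lay below the filter on low values. The recovered reads were 0, 1 and 0 in VEH and 3, 11 and 20 in DEX, and they were 2, 8 and 5 in KJ-PYR-9 and 0 in each KJ-PYR-9+DEX library. In the limma fit with no filter the difference of DEX and VEH was 3.60 on the log2 scale (SE 0.37, adjusted p = 0.000526), and that of KJ-PYR-9+DEX and KJ-PYR-9 was -2.01 (adjusted p = 0.0116). These are few reads.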
